A study of Mus musculus with 18 samples.

Results

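The genes described here encode the proteasome, the protease that takes apart proteins tagged with ubiquitin. They were chosen by name: every protein-coding gene whose symbol begins with Psma, Psmb, Psmc, Psmd, Psme or Psmg and whose mean over the 18 liver libraries was 10 or more. The rule gave 48 of the 31165 genes in the table. The prefixes matched 52 rows, of which 3 were pseudogenes and 1, the thymus subunit Psmb11, had a mean of 0.667. The members nearest the limit on the inside were Psma8, a testis form of an alpha subunit, at 18.3 and Psme2b at 31.9. Psme2b is a near-identical copy of Psme2, so reads could be split between them and its values are uncertain. Of the 48 members, 47 are subunits, caps or assembly factors of the proteasome. The other, Psmc3ip, shares only the prefix: its product helps homologous chromosomes pair in meiosis.

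The livers came from C57BL/6J mouse pups that had received intraperitoneal injections on postnatal days 1 and 3. The treated arm received a stabilised miR-497a-5p mimic, a synthetic copy of a microRNA of the miR-15/16 family, and the control arm a scrambled mimic. Livers were taken at day 5 (P5), day 7 (P7) or day 14 (P14), with 3 libraries for each injection and day. The treatment protocol names doses of 100 and 10 mg/kg, and the library labels do not repeat the dose. No group was left uninjected. The labels do not tie pups to litters, so each p-value below measures the spread between these livers, which may be partly technical. Values are scaled counts, gene counts that the authors brought to a common scale and rounded. They summed to between 3954405 and 4248257 per library. Raw depth is unknown, so no counting interval is given. The P7 scrambled libraries stood apart. When replicates 2 and 3 were set aside, 8706 genes had a mean of at most 0.2 in the remaining 16 libraries. These genes made up 0.0675% of the sum in replicate 2 and 1.25% in replicate 3, against at most 0.0112% in the 16. They were picked for low values in the 16, so a lower share there was partly fixed by the choice. No other libraries were held out in this way, and replicate 2 was set apart on this share alone. Skeletal muscle markers summed to 1455 in P7 scrambled replicate 1, 394 in replicate 3 and at most 22 elsewhere. Counts of members at P7 and the P7 values of the immune subunits are given below with and without these libraries.

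The proteasome is built from a barrel, the 20S core, and caps that open it. The core is a stack of rings: outer rings of alpha subunits (Psma genes) form the gate, and inner rings of beta subunits (Psmb genes) carry the cutting sites. Psmb5, Psmb6 and Psmb7 encode the cutting subunits of the ordinary core. Interferon induces the substitutes Psmb8, Psmb9 and Psmb10, which replace Psmb5, Psmb6 and Psmb7 and form the immunoproteasome, an enzyme abundant in white blood cells that shapes peptides for display on class I molecules. The 19S cap (Psmc ATPases and Psmd subunits) recognises ubiquitin and unfolds the substrate. The activators Psme1 and Psme2 (PA28 alpha and beta), Psme3 (PA28 gamma) and Psme4 (PA200) are alternative caps.

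Most of the proteasome genes were well expressed. Leaving out Psma8 and Psme2b, the subunits, caps and chaperones (45 genes) had means over the 18 libraries between 87.3 (Psmg3) and 874 (Psmd2) scaled counts, with a median of 452. Per kilobase of the main annotated transcript, the constitutive beta subunits ran from 165 (Psmb5) to 566 (Psmb6) scaled counts. The immune subunits lay within that range: 240 for Psmb8, 200 for Psmb9 and 291 for Psmb10 per kilobase. On this scale Psmb8 stood above its constitutive counterpart Psmb5, Psmb9 stood below Psmb6 at 566, and Psmb10 stood below Psmb7 at 381. Albumin, the main secreted protein of hepatocytes, reached only 1026 scaled counts per kilobase, and the highest value of any gene in any library was 7201. The sources used here do not say how duplicate reads were treated, and levels of abundant genes may be compressed.

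**Figure D1:**
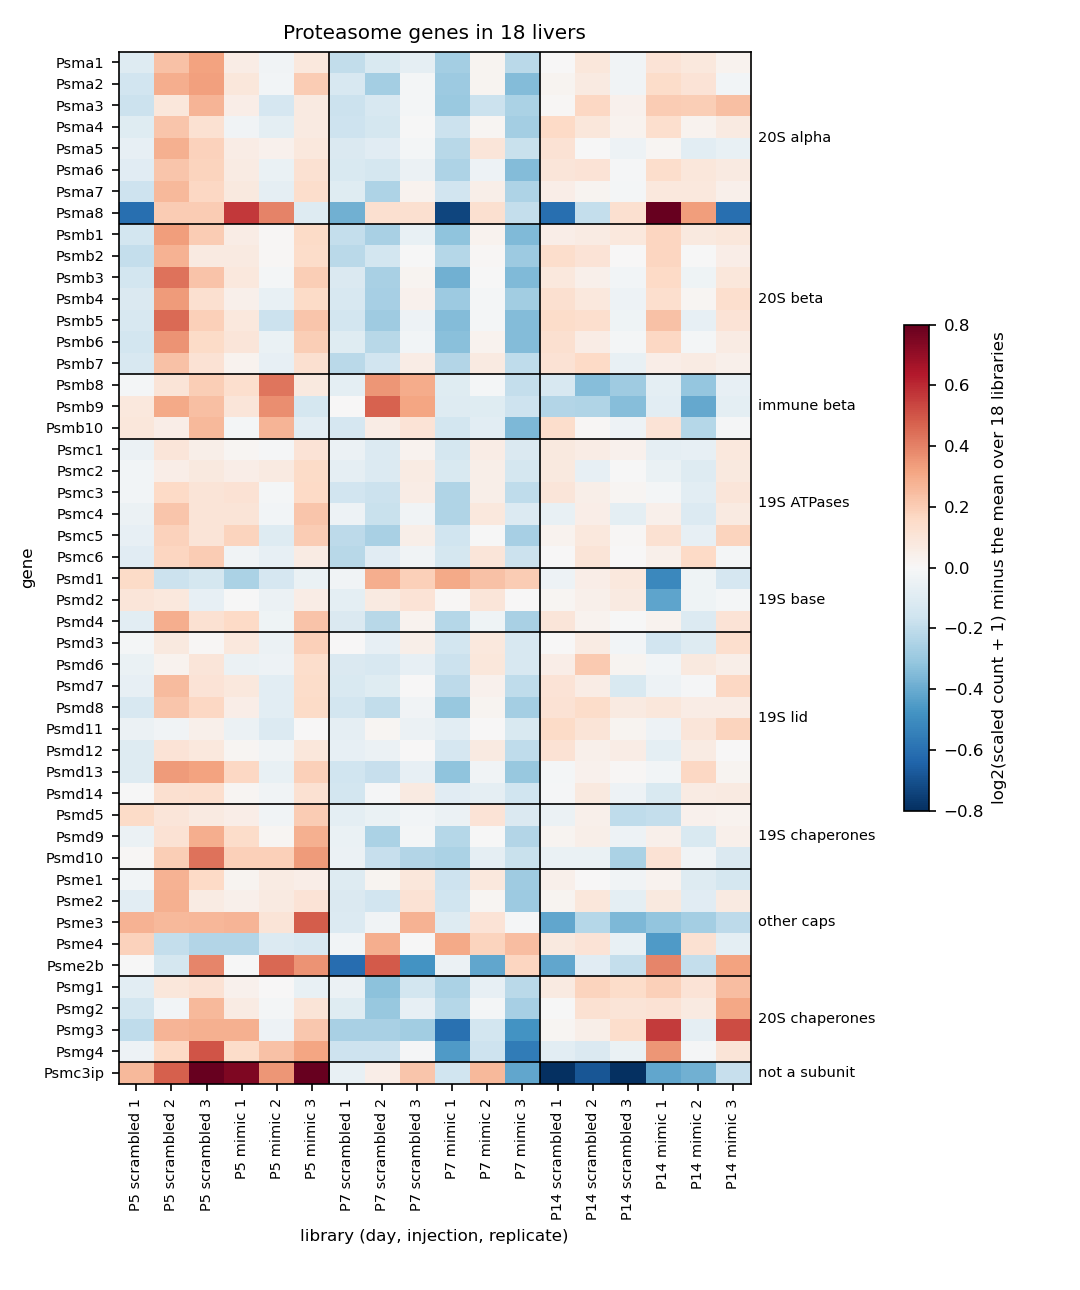
Each row is a gene and each column a library, grouped by day and injection. Colour gives log2(scaled count + 1) minus the gene's mean over the 18 libraries, with values beyond 0.8 in either direction drawn in the end colours. Constitutive core genes share a pattern that is low at P7, Psmb8 and Psmb9 are low at P14, and Psme3 and Psmc3ip fall from P5 to P14.

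Between P5 and P14, 5 members fell and no other member passed the test. With both injections averaged, limma on log2(scaled count + 1) called 0 of 48 members higher and 5 lower at an adjusted p under 0.05, which is 10.4% of members. Over all 14104 genes tested, 48.8% were called, 23.9% higher and 24.8% lower. The median size of the log2 difference was 0.07 in members and 0.27 in all genes. No member of the constitutive core passed: its 14 genes, Psma8 left out, lay between -0.11 and 0.11, and the 17 genes of the 19S cap between -0.11 and 0.12. The 5 that fell were Psmc3ip, Psme3, Psmb9, Psmb8 and Psmd10. In whole-liver RNA, fewer cells of a type and less RNA per cell cannot be told apart.

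**Figure D2:**
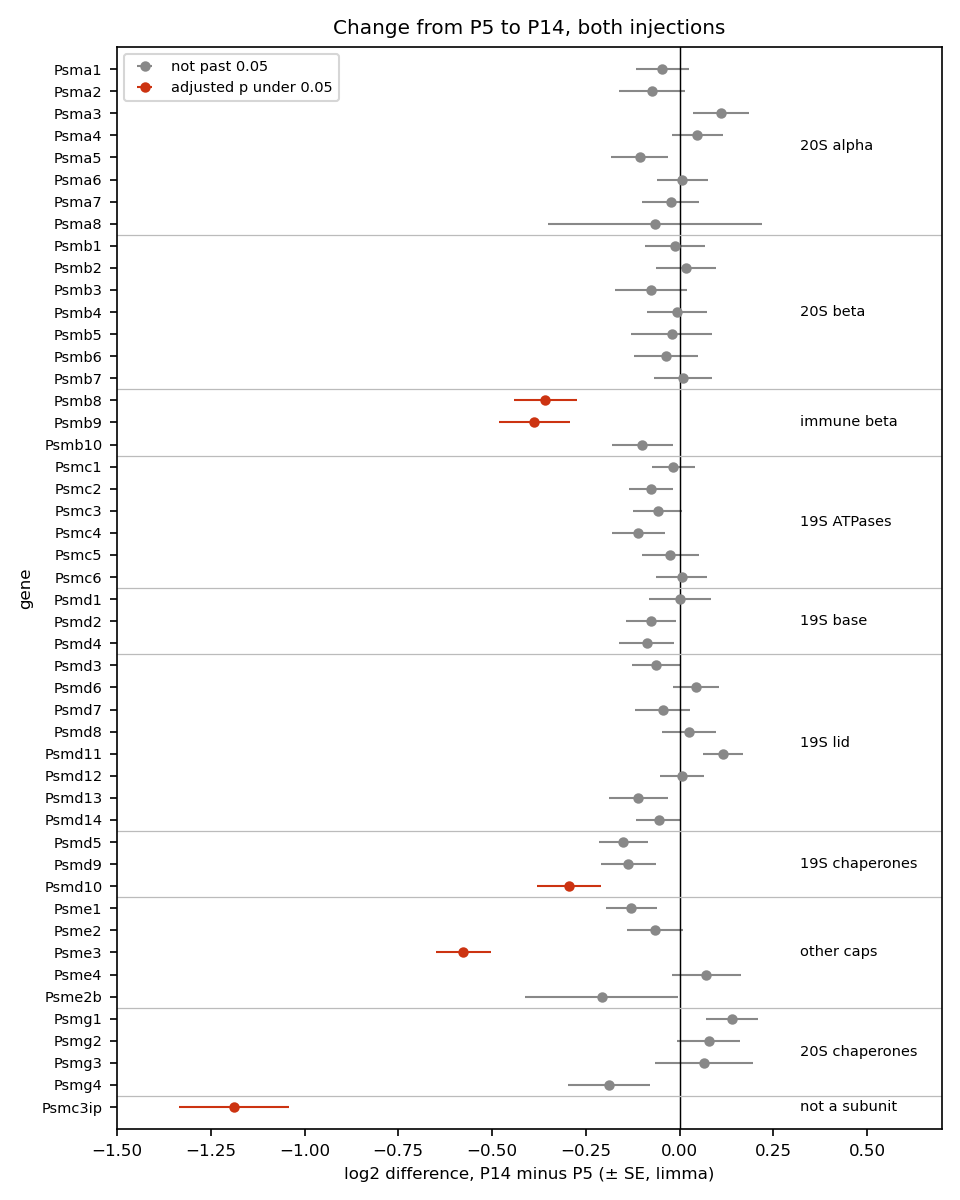
Points give the log2 difference of P14 minus P5 with both injections averaged, and bars the standard error from limma. Red marks members with an adjusted p under 0.05. The constitutive core and the 19S cap sit around 0, and Psmb8, Psmb9, Psmd10, Psme3 and Psmc3ip lie to the left.

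Psmb8 encodes the immune counterpart of the chymotrypsin-like subunit. In the scrambled arm it measured 382, 415 and 443 scaled counts at P5, 366, 493 and 473 at P7, and 353, 304 and 316 at P14. In the mimic arm it measured 424, 520 and 408 at P5, 360, 381 and 338 at P7, and 366, 311 and 368 at P14. All 6 libraries at P14 lay below all 6 at P5. The means were 432 ± 47.5 at P5 and 336 ± 29.2 at P14 (SD, n = 6), and limma gave a log2 change of -0.36 ± 0.08 (SE) with an adjusted p of 0.00174.

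Psmb9 replaces the caspase-like subunit. Its values in the scrambled arm were 283, 329 and 315 at P5, 268, 370 and 333 at P7, and 227, 226 and 211 at P14. In the mimic arm they were 285, 345 and 242 at P5, 248, 250 and 238 at P7, and 252, 201 and 253 at P14. The P5 and P14 ranges touched only through P5 mimic replicate 3. The log2 difference of P14 minus P5 was -0.39 ± 0.09 (SE, limma adjusted p 0.00224). With the mimic libraries alone it was -0.30, with an adjusted p of 0.0971.

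Psmb10 replaces the trypsin-like subunit. The scrambled libraries gave 404, 393 and 455 at P5, 345, 395 and 410 at P7, and 419, 382 and 369 at P14. The mimic libraries gave 375, 458 and 358 at P5, 342, 358 and 295 at P7, and 409, 323 and 376 at P14. These ranges overlapped on all days, and the log2 difference of P14 minus P5 was -0.10 ± 0.08 (limma adjusted p 0.331). The constitutive counterparts gave -0.02 ± 0.11 for Psmb5, -0.04 ± 0.09 for Psmb6 and 0.01 ± 0.08 for Psmb7, none past the threshold. Whether the immune subunits differed from their counterparts in the age change was not tested. As a description, the log2 ratio of Psmb8 to Psmb5 in scaled counts averaged 1.45 ± 0.32 at P5 and 1.11 ± 0.10 at P14 (SD, n = 6). The ratio of Psmb9 to Psmb6 averaged -0.69 ± 0.26 and -1.04 ± 0.09 on those days, and that of Psmb10 to Psmb7 -0.17 ± 0.22 and -0.28 ± 0.13. At P7 the 3 ratios averaged 1.64 ± 0.23, -0.51 ± 0.27 and -0.19 ± 0.15.

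**Figure D3:**
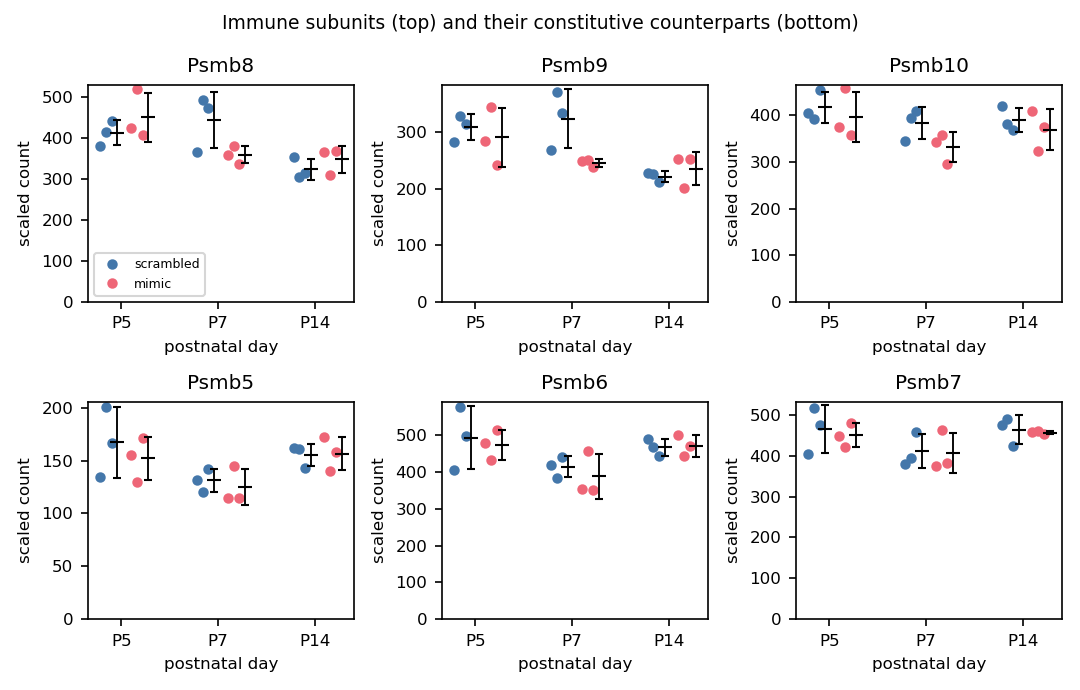
Each point is one library in scaled counts, with the mean and SD of each group of 3 beside it. The upper row shows the immune subunits and the lower row the constitutive subunits they replace. Psmb8 and Psmb9 are lowest at P14, and all 3 P7 mimic values of Psmb9 lie below the P7 scrambled values.

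Markers of white blood cells fell over the same days as Psmb8 and Psmb9. All 7 general white blood cell markers (among them Ptprc, the CD45 antigen) fell from P5 to P14, with a median log2 difference of -0.78, and their summed level ran from 3495 to 5060 at P5 and from 1880 to 2337 at P14. Of the more specific lists, 8 of 8 B cell markers and 10 of 10 neutrophil markers fell. So did 7 of 10 T and NK cell markers, 6 of 8 macrophage markers and 3 of 5 dendritic cell markers. Over all genes tested, 24.8% were called lower. The log2 difference was above 0 in 2 of the 10 T and NK cell markers and 2 of the 5 dendritic cell markers. No marker in these lists was at 0 in every library. Red cell precursor markers, 12 of 15 of which fell, and 8 of 8 markers of dividing cells moved the same way. The livers carried the defining hepatocyte genes at all ages, with 3 of 8 higher at P14 and 0 lower (23.9% and 24.8% of all genes). The part of these cell types in the fall of Psmb8 and Psmb9 was not tested.

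Genes for class I antigen presentation and its induction changed in both directions. Of 21 tested, 2 rose and 4 fell from P5 to P14 (limma), 28.6% against 48.8% of all genes, with a median of -0.02 against 0.01 over all genes. The falls included Irf8 (-0.85, adjusted p 2.0e-07), a transcription factor of myeloid and dendritic cells, Jak2 (-0.58), an interferon receptor kinase, and Tap1 (-0.48), a subunit of the peptide transporter of the endoplasmic reticulum. Irf2 (0.38) and the peptide trimming enzyme Erap1 (0.29) rose. Tap1 fell with an adjusted p of 0.00136 (limma). Tap2, which encodes the partner of Tap1, measured 0.04, and B2m, the light chain of class I molecules, -0.02; neither passed, and both signs turned under other settings. Psmb9 (chr17:34181988-34187764, minus strand), Tap1 (chr17:34187553-34197225, plus), Psmb8 (chr17:34197790-34201454, plus) and Tap2 (chr17:34203527-34216321, plus) lie side by side in GRCm38. The Psmb9 and Tap1 models overlap head to head on opposite strands. The kit keeps the strand, per the labels, but the sources used here do not say whether the counting used it. Psmb10 lies apart at chr8:105935739-105938444, minus strand.

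The immune subunits also moved together from liver to liver within a group. After subtracting the mean of its group from each library, Psmb8 and Psmb9 correlated at r = 0.89 (Spearman rho 0.85, n = 18, within-group permutation p 0.00094 and 0.0022). Psmb8 and Psmb10 gave r = 0.88 (rho 0.81, permutation p 0.00085 and 0.00107), and Psmb9 and Psmb10 gave r = 0.77 (rho 0.69, permutation p 0.0062 and 0.0116). Each of these held at an adjusted p under 0.05 over the 12 relations computed: the adjusted values for r were 0.00282, 0.00282 and 0.0149, and for rho 0.0103, 0.0103 and 0.0278. Without the 2 libraries farthest from the median on the first axis, r was 0.83, 0.85 and 0.71. No relation between an immune subunit and the constitutive subunit it replaces passed the test. The values of r were 0.07 for Psmb8 with Psmb5, 0.06 for Psmb9 with Psmb6 and 0.16 for Psmb10 with Psmb7, with rho of 0.10, 0.05 and 0.16. The permutation p was 0.792, 0.82 and 0.574 for r and 0.723, 0.842 and 0.574 for rho (adjusted 0.881 for each r and 0.919 for each rho). Without the 2 farthest libraries these r rose to 0.30, 0.23 and 0.32.

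Levels of the constitutive core subunits varied with a library-wide measure of transcript length. In each library the rank correlation of expression, relative to the gene's own mean, with transcript length was taken, and it ran from -0.35 to 0.20 at P5, from 0.05 to 0.49 at P7 and from -0.24 to 0.02 at P14. Within groups, its deviation correlated with that of Psmb5 at r = -0.90 (rho -0.80, permutation p 0.00071 and 0.00294, adjusted 0.00282 and 0.0103) and Psmb6 at r = -0.93 (rho -0.86, permutation p 0.00076 and 0.00342, adjusted 0.00282 and 0.0103). For Psmb7 it was r = -0.75 (rho -0.62, permutation p 0.0186 and 0.0425, adjusted 0.0372 and 0.085). Without P5 scrambled replicate 1 and P7 mimic replicate 2, the libraries farthest out, r was -0.85, -0.87 and -0.58. Over the 14 constitutive core genes r ran from -0.93 to -0.68, with a median of -0.86. Over the 17 genes of the 19S cap it ran from -0.88 to 0.65, with a median of -0.68, and Psmd1 (0.65) and Psmd2 (0.16) had the opposite sign. The immune subunits gave -0.07 (Psmb8), -0.04 (Psmb9) and -0.13 (Psmb10), with rho of -0.07, -0.02 and -0.11. Their permutation p was 0.792, 0.881 and 0.65 for r and 0.828, 0.941 and 0.714 for rho (adjusted 0.881 for each r, and 0.919, 0.941 and 0.919 for rho). Without the same pair of libraries their r was 0.15, 0.12 and 0.02. The immune transcripts were of middling length, between 1311 and 1628 bases. Other members within that range of length gave r from -0.88 to -0.24. Why the immune subunits differed from them was not tested. The same r over all genes is not given here, so how common values of either kind are is unknown.

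**Figure D4:**
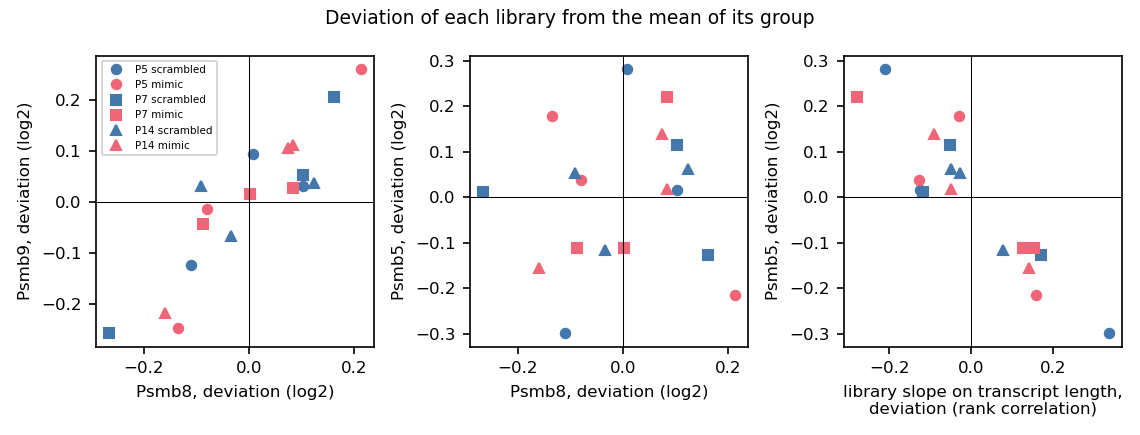
Each point is one library, shown as its deviation from the mean of its group on the log2 scale. Psmb8 and Psmb9 rise together (left, r = 0.89), Psmb5 shows no such relation with Psmb8 (middle, r = 0.07), and Psmb5 falls as the library's correlation with transcript length rises (right, r = -0.90).

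Sequence upstream of the start sites was searched for short cores of elements known for these genes. The search covered both strands in the 250 bases upstream of each RefSeq start (GRCm38.p6, 40 of 48 members matched). The core of the gamma-activated element, TTCNNNGAA, was found in 2 members, Psmb8 and Psmg1 (5.0% of members, 7.02% of all 32851 promoters). The antioxidant response core TGACNNNGC, which NRF1 (gene Nfe2l1) binds when it drives the constitutive subunits, was found in Psmb5, Psmb6, Psmc6, Psmd12 and Psmd9 (12.5% of members, 10.2% of all promoters). The interferon response core, GAAA and GAAA with any 2 bases between, was found in Psmb3, Psmd4 and Psmd9 (7.5% of members, 2.98% of all promoters). A match is a description of these letters only. The stretches that follow show an immune and 2 constitutive cutting subunits, with the core in capitals. The Psmb8 stretch is cut short because its window lies inside an exon of a longer annotated transcript, as does the window of Psmb9, which held none of the patterns.
Psmb8, chr17:34198088-34198116, plus strand: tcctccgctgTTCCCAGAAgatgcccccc
Psmb5, chr14:54618023-54618245, minus strand: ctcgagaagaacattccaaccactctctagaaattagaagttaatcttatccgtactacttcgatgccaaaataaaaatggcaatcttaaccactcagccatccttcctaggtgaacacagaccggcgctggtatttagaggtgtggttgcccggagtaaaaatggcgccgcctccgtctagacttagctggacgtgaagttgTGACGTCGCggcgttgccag
Psmb6, chr11:70525107-70525356, plus strand: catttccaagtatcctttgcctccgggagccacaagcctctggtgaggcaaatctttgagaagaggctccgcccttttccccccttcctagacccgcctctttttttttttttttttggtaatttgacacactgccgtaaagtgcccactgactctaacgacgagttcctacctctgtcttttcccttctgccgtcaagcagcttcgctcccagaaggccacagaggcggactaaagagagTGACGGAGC

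Among the alternative caps, Psme3 fell and the PA28 alpha and beta pair did not pass. Psme3 encodes the nuclear activator PA28 gamma, which is known for promoting the turnover of cell cycle regulators. It measured 875, 865 and 869 scaled counts in the scrambled and 871, 774 and 1009 in the mimic libraries at P5. At P7 it measured 670, 709 and 875, and 671, 779 and 717. At P14 it measured 542, 616 and 563, and 579, 598 and 623. All P14 libraries lay below all P5 and all P7 libraries. The log2 difference of P14 minus P5 was -0.58 ± 0.07 (limma adjusted p 2.97e-06), and it was negative and past the threshold in each arm alone (-0.60 scrambled, -0.55 mimic). The dividing-cell markers, whose summed level ran from 5264 to 6642 at P5 and from 2197 to 3024 at P14, also fell. So did most of the white blood cell and red cell precursor markers, and a link of Psme3 to any of these was not tested. Psme1 (-0.13 ± 0.07), Psme2 (-0.07 ± 0.08) and Psme4 (0.07 ± 0.09) had adjusted p-values of 0.131, 0.5 and 0.548 (limma).

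Psmd10 and Psmc3ip also fell. The first encodes gankyrin, a chaperone of the 19S base. It measured 167, 191 and 225 scaled counts in the scrambled and 190, 190 and 211 in the mimic libraries at P5, and 160, 160 and 139, and 180, 163 and 153, at P14. The P14 values overlapped only with the lowest of the P5 values, and limma gave -0.29 ± 0.09 with an adjusted p of 0.00833. Psmc3ip, which is no part of the particle, measured 74, 86 and 108, and 104, 79 and 122, at P5, and 30, 38 and 34, and 46, 47 and 54, at P14. These ranges did not overlap, and limma gave -1.19 ± 0.15 with an adjusted p of 1.96e-06. Counting members whose 6 P14 libraries all lay below the 6 of P5 gave Psmb8, Psme3 and Psmc3ip, 6.25% of members against 15.3% of all genes. No member had all P14 libraries above P5, against 10.9% of all genes. The 20S assembly chaperones gave 0.14 ± 0.07 (Psmg1), 0.08 ± 0.08 (Psmg2), 0.07 ± 0.13 (Psmg3) and -0.19 ± 0.11 (Psmg4), none past the threshold.

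Partners of the proteasome outside the name rule changed in both directions. Of 26 further proteasome and ubiquitin genes tested, 4 rose and 3 fell from P5 to P14 (limma), 26.9% against 48.8% of all genes, with a median of -0.04 against 0.01. Ddi2, the protease that activates NRF1, rose by 0.45 (adjusted p 0.000166), and Nfe2l1 itself by 0.23 (adjusted p 0.00971). The constitutive core genes that NRF1 is known to drive lay between -0.11 and 0.11 over the same interval. Whether NRF1 acted on them in these livers was not tested. Usp14, the deubiquitinating enzyme of the 19S cap, fell by 0.31 (limma adjusted p 0.000521).

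At P7 many subunits were lower than at P5. Against P5, 21 members were lower and 2 higher (limma adjusted p under 0.05), 47.9% of members against 26.9% of all genes (13.2% lower, 13.7% higher). The lower members included 9 of the 14 constitutive core genes, among them Psmb5 (-0.31 ± 0.11, adjusted p 0.0443), Psmb6 (-0.27 ± 0.09, adjusted p 0.0299), Psmb1 (-0.30), Psmb3 (-0.31) and Psma2 (-0.30), and 3 of the 4 chaperones Psmg1 (-0.19), Psmg3 (-0.47) and Psmg4 (-0.47). Psmd10 (-0.39), Psmd13 (-0.32), Psme3 (-0.25) and Psmc3ip (-0.62) were lower too. The 2 higher members, Psmd1 (0.30) and Psme4 (0.28), have long transcripts, of 3112 and 6491 bases. Other long members went the other way: Psmd5, at 4397 bases, was at -0.13 and did not pass, and Psma2, called lower, has 2911 bases. No immune subunit passed: the values were -0.11 for Psmb8, -0.09 for Psmb9 and -0.19 for Psmb10, with adjusted p-values of 0.334, 0.52 and 0.0898. Psmb7 (-0.17), Psmg2 (-0.20), Psme1 (-0.15) and Psme2 (-0.18) did not pass either. Without P7 scrambled replicates 2 and 3 the immune subunits gave -0.25 (Psmb8), -0.22 (Psmb9) and -0.26 (Psmb10), and without replicate 1 they gave -0.05, -0.02 and -0.15. None passed in either fit. Several of the calls against P5 were lost when 1 library was left out. Of the 18 fits that each left out 1 library, Psmg1 lost its call in 13 (highest limma adjusted p 0.129), Psmb5 in 10 (0.123), Psmb6 and Psme4 in 7 each, and Psmb3 and Psma2 in 6 each. Psme3 lost it in 2 and Psmg3 in 1.

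From P7 to P14 many of them rose. In this comparison, which shares its P7 libraries with the one above, 19 members rose and 5 fell (limma), 50.0% against 50.3% of all genes (24% higher, 26.3% lower). Rises included 11 of the 14 constitutive core genes and 4 of 4 Psmg chaperones: Psmg1 (0.33), Psmg2 (0.28), Psmg3 (0.54) and Psmg4 (0.28). Other members that rose included Psma3 (0.31) and Psmb1 (0.28). Psmb5 rose by 0.28 (limma adjusted p 0.0361) and Psmb6 by 0.23 (adjusted p 0.0331), while Psmb7 (0.17), Psmb10 (0.09), Psme1 (0.02), Psme2 (0.11) and Psme4 (-0.21) did not pass. The falls were in Psmb8 (-0.25, adjusted p 0.0221), Psmb9 (-0.30, adjusted p 0.0133), Psme3 (-0.32), Psmd1 (-0.30) and Psmc3ip (-0.57). For Psmb8 and Psmb9 the fall lay mainly in the scrambled arm. Mean Psmb8 went from 444 at P7 to 324 at P14 in the scrambled libraries and from 360 to 348 in the mimic libraries. Mean Psmb9 went from 324 to 221 in the scrambled and from 245 to 235 in the mimic libraries. Without P7 scrambled replicates 2 and 3, Psme3 alone was still called lower (-0.25, limma adjusted p 0.0301). In that fit Psmb8 was at -0.11 (adjusted p 0.367), Psmb9 at -0.17 (adjusted p 0.232) and Psmb10 at 0.16 (adjusted p 0.221). Without replicate 1 they were at -0.31, -0.37 and 0.05, with Psmb8 and Psmb9 past the threshold. Psmb8 also lost its call when any of 4 single libraries was left out: replicate 2 or 3 of P7 scrambled, or replicate 2 of either arm at P14 (highest adjusted p 0.0659). Of the rises, Psmb5 and Psmg4 lost their call in 8 of the 18 fits without 1 library and Psmb6 in 6. Of the 48 members, 9 had all P14 libraries above all P7 libraries (18.8%, against 10.9% of all genes). Psmd10 alone had all P7 libraries below all P5 libraries (2.08% of members against 3.31% of all genes).

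These P7 differences moved with transcript length and with single libraries. Across the 47 subunits, caps and chaperones, Psmc3ip left out, the Spearman correlation of length with the P7 minus P5 difference was 0.46, and over 14096 genes it was 0.48. For P14 minus P5 it was -0.05 in members. Each library's length correlation ran from -0.35 to 0.20 at P5 and from 0.05 to 0.49 at P7. As a covariate it therefore cannot be fully told apart from day. With this covariate, 0 members were called higher and 0 lower at P7 against P5, and Psmb5, Psmb6 and Psmb7 turned to 0.11, 0.09 and 0.08. From P7 to P14 that fit called 0 higher and 2 lower, and from P5 to P14 it called 2 higher and 5 lower, with Psmb8 at -0.35 and Psmb9 at -0.38. With the scrambled libraries alone, 0 were lower at P7 and 1 was higher at P14 against P7, and with the mimic libraries alone 3 and 7. Without P7 scrambled replicates 2 and 3, 0 were higher and 4 lower at P7, and 8 were higher and 1 lower from P7 to P14. Without P7 scrambled replicate 1 the counts were 2 and 15, and 10 and 5. Whether length bias accounts for the P7 values was not tested.

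**Figure D5:**
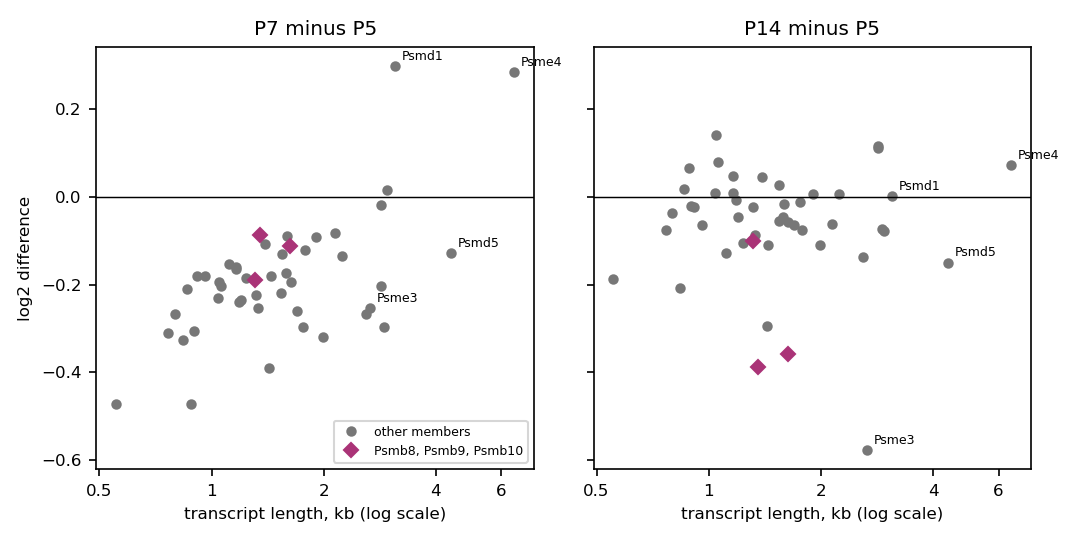
Each point is a member, placed by the length of its main transcript (log scale) and its log2 difference. At P7 against P5 (left) short transcripts lie lower and the long Psmd1 and Psme4 lie above 0, while the long Psmd5 lies below 0. At P14 against P5 (right) no such slope is seen, and Psmb8, Psmb9 and Psme3 lie low. Psmc3ip, which is no subunit, is not drawn.

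The mimic comparison asks whether the injected microRNA changed these genes. No member passed at P5, P7 or P14, in the mean of the 3 days or in the test of a difference between days (limma adjusted p under 0.05). Over all genes tested 0%, 0.00709%, 0.0213%, 0.00709% and 0.00709% passed. At an unadjusted p under 0.05 there were 0, 2 and 3 members at P5, P7 and P14, against 1.89%, 7.61% and 5.41% of all genes. In the mean of the 3 days there were 0 (3.24% of all genes), and in the test between days 1, Psmb8 (6.5%). The log2 differences of the 48 members lay between -0.13 and 0.35 at P5, between -0.39 and 0.15 at P7 and between -0.26 and 0.53 at P14. At P5 the smallest p-values belonged to Psma1 (-0.11 ± 0.10), Psmc6 (-0.11 ± 0.10) and Psma4 (-0.10 ± 0.10), each with an adjusted p of 1 (limma). At P14 they belonged to Psmc3ip (0.52 ± 0.21), Psmd1 (-0.26 ± 0.12) and Psmd2 (-0.20 ± 0.09), with adjusted p-values of 0.814, 0.89 and 0.906.

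At P7 the immune subunits had the smallest p-values among the members. The difference was -0.39 ± 0.13 for Psmb9 (limma adjusted p 0.414), whose 3 mimic values of 248, 250 and 238 all lay below the scrambled values of 268, 370 and 333. It was -0.29 ± 0.12 for Psmb8 (adjusted p 0.541) and -0.21 ± 0.12 for Psmb10 (adjusted p 0.727). Over all genes, 7.44% had mimic libraries wholly below the scrambled ones at P7, against 1 member, 2.08%. The neighbours Tap1 (-0.50 ± 0.16, adjusted p 0.354) and Tap2 (-0.32 ± 0.11, adjusted p 0.387) had differences of the same sign and did not pass. General white blood cell markers summed to 3729, 4100 and 3685 in the P7 scrambled and 3560, 3668 and 3278 in the P7 mimic libraries. T and NK cell markers summed to 682, 1023 and 652, and 680, 633 and 578. Dendritic cell markers summed to 345, 427 and 424, and 304, 291 and 320, with 5 of 5 log2 differences below 0. Macrophage markers were below 0 in 8 of 8 and neutrophil markers in 7 of 10. B cell markers went the other way, at 489, 462 and 582 in the scrambled and 697, 566 and 717 in the mimic libraries, with 7 of 8 above 0 and a median of 0.44. No marker of these lists passed the test. The part of these cells in the differences was not tested. Without P7 scrambled replicates 2 and 3 the differences were -0.13 (Psmb9), -0.03 (Psmb8), -0.06 (Psmb10) and -0.24 (Tap1), while Tap2 was at -0.32. Without P7 scrambled replicate 1 they were -0.52 (Psmb9), -0.43 (Psmb8) and -0.28 (Psmb10). At P5 the immune subunits gave 0.12, -0.10 and -0.08 for Psmb8, Psmb9 and Psmb10, and at P14 0.10, 0.08 and -0.08. The test of a difference between days gave an unadjusted p of 0.0424 for Psmb8 (limma adjusted p 0.757) and 0.0693 for Psmb9 (adjusted p 0.83).

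Of the 48 members, 5 carry a match to the seed of the injected microRNA in their longest annotated 3′ untranslated region, and all 48 have such a region. Matches were not counted over all genes, so whether the members are rich or poor in them is unknown. The mature miR-497a-5p (RefSeq, GRCm38.p6, chr11:70234730-70234751, plus strand) is shown with its seed, bases 2 to 8, in capitals, and sites of 4 of these members follow with the matching 7 bases in capitals.
miR-497a-5p: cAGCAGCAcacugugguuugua
Psmb1, first of 3 sites: gaTGCTGCTgaggtctt
Psmc1: ttgtgccgTGCTGCTctctactc
Psmd13: cctgaaatTGCTGCTccagcaga
Psme3: gcagaggcTGCTGCTcctcgctg

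No member with a site passed in any mimic comparison. Averaged over the 3 days, the log2 differences were -0.02 for Psmb1, -0.03 for Psmc1, -0.04 for Psmd13 and 0.01 for Psme3, with a limma adjusted p that rounds to 1.00 for each. None of the immune subunits carries a site in its longest annotated region.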

How the data were processed

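Strand-specific mRNA-seq was made from 18 livers, per the labels' protocols. The table's values are treated as scores: whole numbers that the authors deposited as normalised counts, per the file headers and as the values show. Raw counts were not used here and could not be recovered, so no count model was fitted. Tools named in the submitters' processing notes, in no order and with no settings, are STAR 2.6.1d, Trimmomatic 0.39, DESeq2 1.26.0, Picard 2.21.7 and featureCounts 1.6.5, and the build is mm10.

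Groups came from the titles. limma 3.58.1 (R 4.3.3) was run on log2 of the value plus a pseudocount of 1, for the 14104 genes whose mean was 10 or more. The design had 6 group means (12 residual degrees of freedom), with moderated variances following a trend on the mean. P-values are two-sided, with Benjamini-Hochberg adjustment over all genes tested. Fold changes of low genes are understated on this scale. Correlations used deviations from group means, with 100000 permutations within groups, two-sided (Python 3.11.15, numpy 2.4.6, scipy 1.17.1). The main transcript is the best-ranked APPRIS transcript of GENCODE M21, and the longest where ranks tied. A library's length correlation used the longest transcript.

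The members and lists were chosen with earlier results of these data known. Always named were Psmb5 to Psmb10, Psme1 to Psme4 and Psmg1 to Psmg4. Per comparison, the rule added up to 6 other members in each direction past an adjusted p of 0.05, or the 3 with the smallest p where none passed, and up to 4 genes of each list by smallest p. Outside that rule, Irf2, Erap1, Tap2, B2m and Nfe2l1 (P14 against P5) and the members with seed sites were named after their values were seen. Some genes that the rule picked, and a seed site, are not reported here. The fit was tested on simulated data. No 2 libraries of a group held identical values (18 pairs). Alternatives changed the pseudocount, low-value filter, scaling, variance trend, covariates, replicate block and libraries used.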

Additional observations from a re-analysis of the deposited data

How the results depend on the processing

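Counts of members called by limma (adjusted p under 0.05) were 0 higher and 5 lower for P14 against P5, 2 and 21 for P7 against P5, and 19 and 5 for P14 against P7. No member was called in a mimic comparison under any alternative run. For P14 against P5, 1 member was higher with TMM scaling, 1 with quantile normalization and 2 with the length covariate, and 3 were lower with the mimic libraries only. For P7 against P5 the counts were 1 and 13 with no filter, 1 and 16 with no trend, 2 and 13 with only the libraries of the comparison, 0 and 0 with the length covariate, 0 and 4 without P7 scrambled replicates 2 and 3, 0 and 0 with the scrambled libraries only and 1 and 3 with the mimic libraries only. For P14 against P7 they were 10 and 5 with no filter, 0 and 2 with the length covariate, 8 and 1 without P7 scrambled replicates 2 and 3, 1 and 4 with the scrambled libraries only and 7 and 2 with the mimic libraries only. With the mean log2 level of the red cell markers as a covariate, 0 were higher and 0 lower in each age comparison. That level ran from 8.80 to 9.27 at P5 and from 5.04 to 6.61 at P14, so it and age cannot be told apart.

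Leaving out 1 library gave 0 to 1 higher and 5 to 8 lower for P14 against P5 (8 without P5 scrambled replicate 1). For P7 against P5 it gave 1 to 2 higher and 6 to 32 lower. The count was 6 without P7 mimic replicate 1, 7 without P5 mimic replicate 3, 8 without P5 scrambled replicate 2 or P7 mimic replicate 3, 9 without P5 scrambled replicate 3, 10 without P7 scrambled replicate 2, 12 without P5 mimic replicate 1 and 32 without P5 scrambled replicate 1. For P14 against P7 it gave 7 to 25 higher and 4 to 6 lower. The higher count was 7 without P7 mimic replicate 3, 8 without P7 mimic replicate 1 or P14 scrambled replicate 1, 11 without P14 mimic replicate 1 and 10 without P7 scrambled replicate 1 or 2 or P14 scrambled replicate 2.

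Replicate numbers did not pair the libraries. Same-numbered libraries correlated between -0.234 and 0.244 in their deviations from group means, and 2 of 9 correlations were over 0.1. The replicate block gave 0 and 5, 2 and 19, and 17 and 5, and moved no count by over 1.5 times.

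Psmb8 kept its sign and its call for P14 against P5 under each alternative except the red cell covariate (-0.67, not past the threshold). Psmb9 lost its call with that covariate (-0.77) and with the mimic libraries only, and Psmd10 with both and with quantile normalization (-0.20). Several log2 differences changed sign, and the cause was not tested. With the red cell covariate, P14 against P5 gave 0.26 for Psme3, 0.010 for Psmc3ip, 0.17 for Psme1, 0.15 for Psme2, -0.027 for Psme4, -0.62 for Tap2, 0.32 for B2m, -0.078 for Irf2, -0.11 for Ddi2, -0.17 for Nfe2l1, 0.29 for Psmb5, 0.23 for Psmb6 and 0.16 for Psmg4. P14 against P7 gave -0.26 for Psmb10, 0.40 for Psme3, 0.084 for Psmd1 and 0.46 for Psmc3ip, and the mimic at P14 gave 0.014 for Psmb10. With the length covariate, P14 against P5 gave 0.025 for B2m, 0.028 for Psmb5 and 0.0072 for Psmb6. P7 against P5 gave 0.012 for Psmb1, 0.075 for Psmb3, 0.11 for Psmb5, 0.093 for Psmb6, 0.076 for Psmb7, 0.034 for Psma2, 0.021 for Psmg2, -0.020 for Psme4, 0.030 for Psme1 and 0.049 for Psme2. P14 against P7 gave -0.078 for Psmb5, -0.086 for Psmb6, 0.055 for Psme4, -0.038 for Psmb7, -0.14 for Psme1 and -0.087 for Psme2. For P14 against P5, B2m was 0.013 and Psmb5 0.0067 with TMM scaling, Psmb5 was 0.086 and Psmb7 -0.0033 with quantile normalization, and Tap2 was -0.015, B2m 0.026 and Psmb5 0.047 with the mimic libraries only. With the scrambled libraries only, Psmb7 was -0.0025 and Psmg3 -0.052 for P14 against P5, and Psmb8 was 0.094 and Psmb9 0.057 for P7 against P5. Leaving out 1 library, the P14 against P5 values ran from -0.028 to 0.074 for Tap2, -0.092 to 0.071 for B2m, -0.096 to 0.0495 for Psmb5, -0.10 to 0.024 for Psmb6, -0.041 to 0.0496 for Psmb7 and -0.014 to 0.17 for Psmg3. Psme1 ran from -0.016 to 0.0755 for P14 against P7, Psmb9 from -0.23 to 0.024 for the mimic at P5 and Psmb10 from -0.16 to 0.010 for the mimic at P14.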
